A study of Rattus norvegicus with 10 samples.

Results

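The nuclear factor I (NFI) and nuclear factor of activated T cells (NFAT) genes were followed in lens explants of rats as the cells answered a high dose of FGF2. The members are the 4 NFI genes, Nfia, Nfib, Nfic and Nfix, and the 5 NFAT genes, Nfat5, Nfatc1, Nfatc2, Nfatc3 and Nfatc4, 9 of the 14217 genes named on the array. They were chosen by symbol: every probe set, the group of short probes that reads 1 transcript or a few, was taken when the array annotation gave it 1 of these symbols alone. That rule found 18 of the 31042 probe sets tested, 10 for NFI and 8 for NFAT, and each is described below. Explants, pieces of lens capsule with the attached epithelium, came from 3-day-old pups, and 6 explants were used per assay. Neither strain nor genotype is given in the labels, and no animal was described as altered. Cultures were induced with 100 ng/mL FGF2 for 2, 4, 12, or 24 hr, and the 0 hr reference cultures were collected after the night at 5 ng/mL that all cultures received. Each of the 5 time points has 2 arrays, 10 in all, which the study calls biological duplicates without saying whether the animals differed.

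NFI proteins bind DNA as homodimers or heterodimers to a palindrome whose half-site is TTGGC, and they can raise or lower the transcription of their targets. They are best known for the differentiation of glia, muscle and lung. The 4 calcium-regulated NFAT proteins, encoded by Nfatc1 to Nfatc4, wait in the cytoplasm in a phosphorylated form until the phosphatase calcineurin, which is switched on by calcium, strips the phosphates and lets them enter the nucleus. There they often bind beside AP-1 at sites with the core GGAAA. Nfat5, also called TonEBP or OREBP, has a related DNA-binding domain but no calcineurin control, and it is known for switching on genes that protect cells from high salt and sugar. The study placed Nfib and Nfat5 among transcription factors that FGF2-regulated microRNAs might target, so the question here is how the mRNAs of both families changed after FGF2.

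Promoter sequences are printed for 3 members. Nfatc2 is shown because both of its probe sets rose at every time point, and Nfia and Nfib because 1 probe set of each, 1369679_a_at and 1388167_at, fell at 2 and 4 hr and rose at 12 hr. RefSeq promoters (build GRCr8), from 250 bases before the start site to 50 bases after it, were found for 5 of the 9 members: Nfia, Nfib, Nfic, Nfix and Nfatc2. They are written along the strand of the gene, with every match to 4 motifs, searched on both strands, in capitals. The motifs were the NFI half-site TTGGC, the NFAT core GGAAA, the AP-1 site TGANTCA and the Ets core CCGGAA. AP-1 and Ets factors are classical nuclear targets of FGF signaling. These motifs do not overlap one another in the promoters shown.
Nfatc2, chr3:177732925-177733224, minus strand: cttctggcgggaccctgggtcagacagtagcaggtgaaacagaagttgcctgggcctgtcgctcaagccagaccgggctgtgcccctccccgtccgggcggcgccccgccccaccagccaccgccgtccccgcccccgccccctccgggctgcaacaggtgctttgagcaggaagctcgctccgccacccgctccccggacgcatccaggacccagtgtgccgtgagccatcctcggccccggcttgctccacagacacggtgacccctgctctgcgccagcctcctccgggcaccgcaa
Nfia, chr5:117557030-117557329, plus strand: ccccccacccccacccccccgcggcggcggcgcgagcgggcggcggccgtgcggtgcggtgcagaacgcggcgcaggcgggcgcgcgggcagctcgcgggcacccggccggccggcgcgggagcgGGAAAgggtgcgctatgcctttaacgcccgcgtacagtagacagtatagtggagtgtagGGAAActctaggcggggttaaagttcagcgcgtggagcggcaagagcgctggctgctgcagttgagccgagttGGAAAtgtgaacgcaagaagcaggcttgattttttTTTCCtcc
Nfib, chr5:102019896-102020195, minus strand: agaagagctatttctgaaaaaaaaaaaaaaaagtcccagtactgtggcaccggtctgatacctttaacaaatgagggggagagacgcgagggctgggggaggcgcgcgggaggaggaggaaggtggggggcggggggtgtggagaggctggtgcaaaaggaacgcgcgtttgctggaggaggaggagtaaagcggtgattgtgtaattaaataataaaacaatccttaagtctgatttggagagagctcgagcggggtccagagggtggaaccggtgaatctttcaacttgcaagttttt
The Nfia promoter held 4 NFAT cores, whose first bases lie at -125, -66, 7 and 42 counted from the start site as 0, the last of them on the opposite strand. None of the 4 motifs occurred in the windows of Nfatc2 and Nfib, nor in that of Nfix, and the only match in that of Nfic was 1 AP-1 site at -58. Among all 33469 promoters of the same length, 62.7% held 1 or more NFAT cores. For the NFI half-site this share was 45.8%, for the Ets core 15% and for the AP-1 site 7.33%. How many promoters held 4 or more NFAT cores was not counted. A match describes letters and not a bound site.

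Some facts of the arrays touch all results below. Array medians lay between 98.0 and 100.3 intensity units. By the array names, the 2 and 4 hr arrays form a run apart from the others, and the 12 and 24 hr arrays share another run, to which the 0 hr arrays do not belong, so only 4 against 2 hr and 24 against 12 hr are differences within a run. No explants kept at 5 ng/mL for the same hours were on arrays, so effects of dose and of time in culture cannot be told apart. The Actb control, which compares probes at both ends of that mRNA, gave a log2 ratio of 5′ over 3′ signal of -2.13 to -1.37 at 2 and 4 hr, -1.43 to -1.30 at 12 hr and -1.88 to -1.75 at 24 hr, against -1.21 to -1.12 at 0 hr. For the Gapdh control this ratio was -0.30 to -0.17 at 2 and 4 hr. It was -0.14 to -0.06 at 12 and 24 hr and -0.05 to 0.00 at 0 hr. Of the lens epithelium markers all 7, and of the lens fiber markers 12 of 13, were on the array, and none of these lay below the array median on all arrays. Of the epithelium markers 1 fell at 2 hr, 1 at 4 hr, 3 at 12 hr with 1 rise, and 5 at 24 hr, where the median log2 fold change was -0.58, and they summed to 42502 to 44453 units at 12 hr and 39732 to 39766 at 24 hr, against 50484 to 51051 at 0 hr. Of the fiber markers 1, 4, 4 and 1 fell at the 4 times in order and 1 rose at 24 hr, with medians of -0.38, -0.25, -0.26 and -0.22. They summed to 40047 to 41001 units at 0 hr, 30602 to 36851 at 2 hr and 31006 to 38172 at 4 hr. At 12 hr the fiber sum was 33599 to 37982 and at 24 hr 36233 to 42576. All marker counts here are to be read beside the shares of all probe sets called at each time, given below. Endothelial markers (6 of 7 on the array) summed to 950 to 1008 in 24 hr explants, against 1424 to 1804 at 0 hr, and Pecam1 and Tie1 stayed below the array median throughout. Of 8 macrophage and leukocyte markers none was called at any time, their sum stayed between 270.1 and 527 on all arrays, and Ptprc, Csf1r, Aif1, Fcgr2b and Cd3e were below the median on every array. The part of these markers and ratios in the results was not tested. The Actb ratio was put into an alternative fit, but its 0 hr values overlapped none at later times. With a mean per time point its slope rests on differences between the 2 arrays of a time. That fit therefore cannot tell what the ratio contributed. In RNA of whole explants, fewer cells of a type and less RNA per cell cannot be told apart.

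A log2 fold change was called when its adjusted p from limma, with Benjamini-Hochberg adjustment over all 31042 probe sets, was under 0.05. An F test over the 5 time points called 12 of the 18 probe sets, from 7 of the 9 genes, where the background over all probe sets was 40.7%. The genes without a called probe set were Nfic and Nfatc4. Against 0 hr, 2 probe sets rose at 2 hr and 4 fell, with 8.61% and 8.88% of all probe sets called up and down. At 4 hr 3 rose and 5 fell, beside 11.9% of all probe sets in each direction. At 12 hr 6 rose and 2 fell, beside 8.94% and 10%. At 24 hr 3 rose and 2 fell, beside 9.29% and 10.9%. Of the 10 NFI probe sets none rose at 2 or 4 hr, where 3 fell at each time. At 12 hr 4 of them rose and at 24 hr 1, and none fell. Of the 8 NFAT probe sets 2, 3, 2 and 2 rose over the 4 times and 1, 2, 2 and 2 fell. At 12 and 24 hr those were both probe sets of Nfatc2, up, and both of Nfat5, down. In groups of 10 and 8 a count of 0 or 1 lies near the shares of all probe sets. Over the 18 the median log2 fold changes in order of time were -0.03, -0.12, 0.03 and -0.03, and over all probe sets they were 0.00, -0.02, 0.02 and 0.03.

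**Figure D1:**
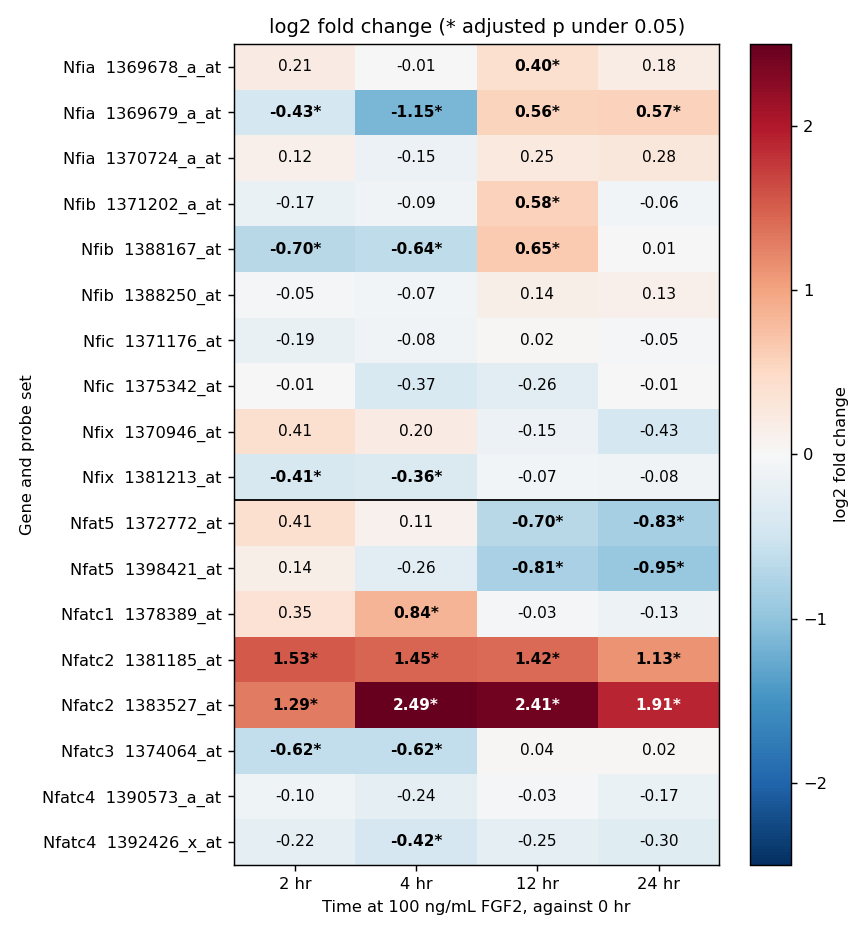
log2 fold change against 0 hr of the 18 NFI (above the line) and NFAT (below it) probe sets after 2, 4, 12 and 24 hr at 100 ng/mL FGF2, with a star and bold type where the adjusted p was under 0.05. Both Nfatc2 probe sets carry a star at all 4 times, at 1.13 to 2.49, while Nfia 1369679_a_at runs from -1.15 at 4 hr to 0.57 at 24 hr.

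Nfatc2 gave the largest change of either family. It encodes NFAT1, the calcium-regulated member first known from T cells. Probe set 1383527_at read 276 and 282 intensity units at 0 hr, 803 and 582 at 2 hr, 1528 and 1609 at 4 hr, 1566 and 1393 at 12 hr, and 994 and 1108 at 24 hr. All 8 arrays after induction were above both 0 hr arrays, and the level was highest at 4 and 12 hr, which overlapped. The rises were 2.45-fold at 2 hr (log2 fold change 1.29 ± 0.15, the standard error with 2 arrays at each time as for every value here, adjusted p = 0.000871 from limma), 5.62-fold at 4 hr (2.49, adjusted p = 2.65e-05), 5.3-fold at 12 hr (2.41, adjusted p = 4.13e-05) and 3.76-fold at 24 hr (1.91, adjusted p = 9.29e-05). Between 2 and 4 hr, within 1 run of arrays, the level rose by a further 1.20 on the log2 scale (adjusted p = 0.00438, and 0.115 in a fit of these 4 arrays alone). Between the 24 and the 12 hr arrays the difference was -0.49 (adjusted p = 0.107), which did not pass. In the order of levels 0 hr stood lowest, then 2 hr, 24 hr, 12 hr and 4 hr, and 24 hr explants were above those at 2 hr by 0.62 (adjusted p = 0.013, but 0.0523 without the second 2 hr array, 0.0858 without the second 24 hr array and 0.0616 in a fit of these 4 arrays alone), in a comparison that called 5 member probe sets up and 4 down beside 14.6% of all probe sets in each direction.

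The dimmer Nfatc2 probe set, 1381185_at, read 54.0 and 42.3 units at 0 hr, 133 and 143 at 2 hr, 138 and 124 at 4 hr, 124 and 132 at 12 hr, and 98.4 and 111 at 24 hr. Again no array after induction overlapped the 0 hr arrays. It rose 2.88-fold at 2 hr (log2 fold change 1.53, standard error 0.13, adjusted p = 0.000253), 2.74-fold at 4 hr, 2.68-fold at 12 hr and 2.19-fold at 24 hr. Here the mean was highest at 2 hr, and the difference between 4 and 2 hr was -0.07 (adjusted p = 0.836), where the brighter probe set had risen. The 24 hr level was below that at 2 hr by 0.40 on the log2 scale (-0.40, adjusted p = 0.0495), opposite in direction to the brighter probe set, a call that passed in only 6 of 18 alternative fits (adjusted p up to 0.224, and 0.0676 with a replicate block). Over the 10 arrays the log2 values of the pair had a Pearson r of 0.82. A rise at all 4 times was the course of 469 probe sets, or 1.51% of those tested. All 8 calls of Nfatc2 against 0 hr held under every alternative processing that was tried, with the highest adjusted p at 0.0119.

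Nfatc1 behaved otherwise. It encodes NFAT2, which is needed for heart valve and osteoclast formation, and it has 1 probe set, 1378389_at. Its values were 272 and 265 units at 0 hr, 300.3 and 391 at 2 hr, 409.8 and 565 at 4 hr, 289 and 238 at 12 hr, and 255 and 237 at 24 hr. The 4 hr arrays were the highest pair and were free of overlap with all others, while the 12 hr arrays spanned the 0 hr level. It rose 1.79-fold at 4 hr (log2 fold change 0.84, standard error 0.18, adjusted p = 0.00922) and stood at 0.35 at 2 hr (adjusted p = 0.222), -0.03 at 12 hr and -0.13 at 24 hr. A call up at 4 hr alone was the course of 888 probe sets, 2.86% of all. In 12 hr explants the level was below that of 4 hr explants by 0.87 on the log2 scale (-0.87, adjusted p = 0.00855, and 0.0744 without the second 12 hr array). With the Actb ratio in the fit the 4 hr difference was 0.51 (adjusted p = 0.0821), and leaving out 1 of the 0 hr arrays, the first or the second, gave adjusted p = 0.0515 and 0.0595. At 4 hr, 3 of 6 endothelial markers fell and none rose, and among 7 fibroblast and pericyte markers 1, Pdgfrb, rose. These counts stand beside 11.9% of all probe sets called in each direction at 4 hr. The endothelial markers summed to 1285 to 1415 units at 4 hr, against 1424 to 1804 at 0 hr. Fibroblast and pericyte markers summed to 10305 to 11401 units at 4 hr, against 10487 to 10929 at 0 hr. The part of these markers in the Nfatc1 values was not tested.

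Nfatc3, which encodes NFAT4, fell early and came back. Its probe set 1374064_at read 472 and 461 units at 0 hr, 288 and 319 at 2 hr, 323 and 284 at 4 hr, 472 and 486 at 12 hr, and 496 and 454 at 24 hr. The 4 early arrays lay in a band from 284 to 323 and the 6 others in a band from 454 to 496. It was 1.54-fold lower at both 2 hr (log2 fold change -0.62, standard error 0.10, adjusted p = 0.00417) and 4 hr (-0.62, adjusted p = 0.00255), and stood at 0.04 and 0.02 at 12 and 24 hr. In 12 hr explants it was 1.58-fold above the 4 hr level (0.66, adjusted p = 0.00231). Early loss with no later call was the course of 862 probe sets, 2.78% of all. With the Actb ratio in the fit the 2 hr fall did not pass (-0.54, adjusted p = 0.0768), whereas the 4 hr fall passed under every alternative. The low band coincides with the run of the 2 and 4 hr arrays. None of the alternatives can tell that run apart from the 2 and 4 hr time points.

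For Nfatc4, which encodes NFAT3, the brighter probe set 1390573_a_at stayed between 241 and 331 units on all arrays, and its log2 fold changes lay from -0.24 to -0.03 with no call. The other, 1392426_x_at, is of a type that may share probes with other transcripts. It read 105 and 132 units at 0 hr, 97.8 and 104 at 2 hr, 88.9 and 87.1 at 4 hr, 94.6 and 103 at 12 hr, and 97.7 and 93.6 at 24 hr. The 4 hr pair was the lowest and the fall there was 1.34-fold (-0.42, standard error 0.12, adjusted p = 0.0332). Without the second 0 hr array, the one at 132 units, the difference was -0.25 (adjusted p = 0.227). The call was also lost without any 1 of the 4, 12 or 24 hr arrays (adjusted p from 0.0502 to 0.0994) and with the Actb ratio in the fit (0.0837).

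Nfat5 fell in the late phase, and both of its probe sets did so. In 1398421_at the values were 2702 and 2577 units at 0 hr, 2776 and 3064 at 2 hr, 1735 and 2808 at 4 hr, 1473 and 1538 at 12 hr, and 1438 and 1300.5 at 24 hr. In 1372772_at they were 1472 and 1469 at 0 hr, 1752 and 2173 at 2 hr, 1343 and 1875 at 4 hr, 879.9 and 935 at 12 hr, and 919 and 746 at 24 hr. The 4 late arrays were the lowest of the 10 in both probe sets, and the 4 hr replicates were far apart in both. Probe set 1398421_at was 1.75-fold lower at 12 hr (log2 fold change -0.81, standard error 0.19, adjusted p = 0.0182) and 1.93-fold lower at 24 hr (-0.95, adjusted p = 0.00862). Probe set 1372772_at was 1.62-fold lower at 12 hr (-0.70, standard error 0.17, adjusted p = 0.0234) and 1.78-fold lower at 24 hr (-0.83, adjusted p = 0.0105). Nothing was called at 2 or 4 hr, where the 2 probe sets stood at 0.14 and 0.41, and at -0.26 and 0.11. The pair correlated at r = 0.96 over the 10 arrays, and their course, down at 12 and 24 hr alone, was that of 812 probe sets or 2.62%. Leaving out either array of the 0 hr pair or of the 12 hr pair ended both 12 hr calls, with adjusted p from 0.0815 to 0.131. Both 24 hr calls were lost without the first 0 hr array or the second 24 hr array, and that of 1372772_at also without the second 0 hr array (adjusted p from 0.0618 to 0.0835).

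**Figure D2:**
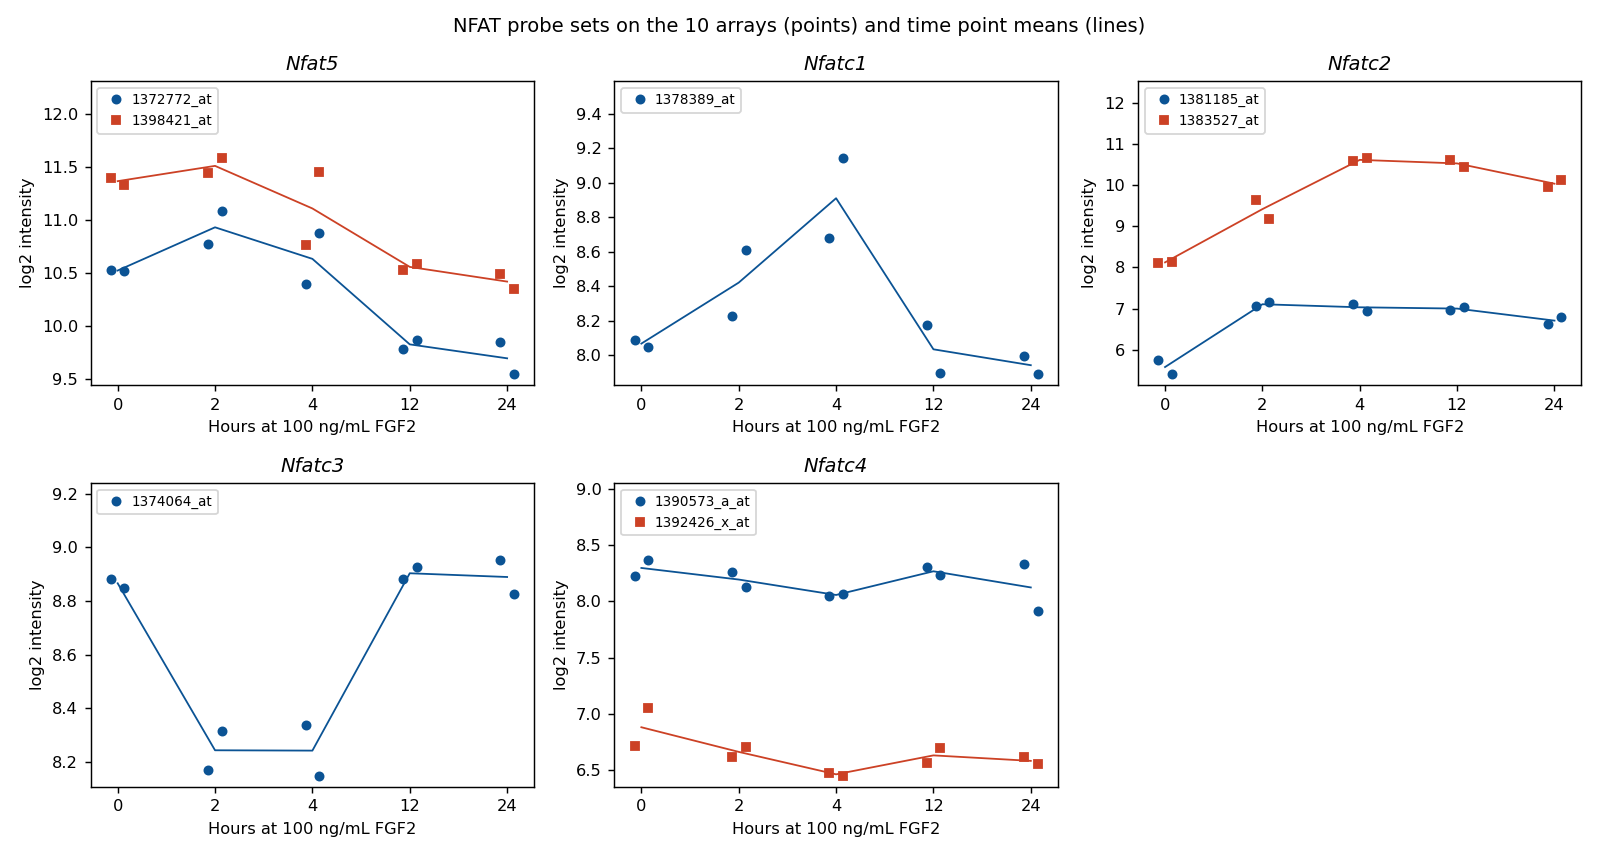
log2 intensity of the NFAT probe sets on each of the 10 arrays (points, 2 per time point) with time point means (lines), against hours at 100 ng/mL FGF2 (times evenly spaced, not to scale), 1 panel per gene and its own vertical scale. Nfatc2 lies above its 0 hr points at every later time, Nfat5 is lowest at 12 and 24 hr, Nfatc1 peaks at 4 hr and Nfatc3 dips at 2 and 4 hr.

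Among the NFI genes Nfia changed most. It encodes NFIA, a driver of gliogenesis in the developing spinal cord. Its brightest probe set, 1369679_a_at, read 1112 and 998 units at 0 hr, 844 and 719 at 2 hr, 459 and 494 at 4 hr, 1461 and 1654 at 12 hr, and 1515 and 1623 at 24 hr. The arrays at 0, 2 and 4 hr formed levels that did not overlap one another, and the 12 and 24 hr arrays lay together above all of them. Nfia was 1.35-fold lower at 2 hr (log2 fold change -0.43, standard error 0.12, adjusted p = 0.0329), 2.21-fold lower at 4 hr (-1.15, adjusted p = 0.000268), then 1.48-fold higher at 12 hr (0.56, adjusted p = 0.00988) and 1.49-fold higher at 24 hr (0.57, adjusted p = 0.00861). In 4 hr explants it was below the 2 hr level by 0.71 on the log2 scale (-0.71, adjusted p = 0.013), both within 1 run of arrays, a call lost without the first 4 hr array (adjusted p = 0.0604), with array quality weights (0.0674) and in a fit of these 4 arrays alone (0.172). In 12 hr explants it was 3.26-fold above the 4 hr level (1.71, adjusted p = 0.000102). Falling at 2 and 4 hr and rising at 12 and 24 hr was the course of 61 probe sets, 0.197% of all. The 4 hr fall held under every alternative tried. The calls at 2 and 24 hr were lost with the Actb ratio in the fit (adjusted p = 0.204 and 0.0541). Leaving out the second 0 hr array, or the second array of the time itself, ended the calls at 2, 12 and 24 hr (adjusted p from 0.0642 to 0.138), and leaving out the first 0 hr array ended that at 2 hr (0.207).

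The other Nfia probe sets moved less. Probe set 1369678_a_at read 173 and 181 units at 0 hr, 210.2 and 199.6 at 2 hr, 176 and 174 at 4 hr, 230.5 and 236 at 12 hr, and 219 and 185 at 24 hr. It was called up at 12 hr only, 1.32-fold (0.40, standard error 0.10, adjusted p = 0.0227), and had no fall at 4 hr (-0.01). That call was lost when either array of the 0 or of the 12 hr pair was left out (adjusted p from 0.0896 to 0.139). Probe set 1370724_a_at was dim, at 54.9 to 94.6 units, with log2 fold changes of 0.12, -0.15, 0.25 and 0.28 and no call. All 3 are of a type that reads several transcripts of 1 gene, and with 1369679_a_at they had r = 0.60 and 0.64 over the 10 arrays.

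Nfib encodes NFIB, which is needed for lung maturation and for glial cells. In 1388167_at the arrays read 288 and 231 units at 0 hr, 173 and 146 at 2 hr, 143 and 191 at 4 hr, 396 and 412 at 12 hr, and 250.4 and 271 at 24 hr. The early arrays were all below both 0 hr arrays, the 12 hr arrays were above all others, and the 24 hr arrays lay between the 0 hr values. It was 1.62-fold lower at 2 hr (log2 fold change -0.70, standard error 0.16, adjusted p = 0.019), 1.56-fold lower at 4 hr (-0.64, adjusted p = 0.0199) and 1.56-fold higher at 12 hr (0.65, adjusted p = 0.0231), and stood at 0.01 at 24 hr. Against the 4 hr level the 12 hr explants were 2.44-fold higher (1.29, adjusted p = 0.000969). This course of down, down, up and no call was that of 30 probe sets, 0.0966% of all. Without the first 0 hr array neither early fall passed (adjusted p = 0.144 at 2 hr and 0.148 at 4 hr), nor did that at 2 hr without the second 2 hr array (0.0892) or that at 4 hr without the first 4 hr array (0.0957). The 2 hr fall was also lost with the Actb ratio in the fit (adjusted p = 0.0693) and the 4 hr fall in a fit of those groups alone (0.0745). The 12 hr rise did not pass without the second 0 hr array (adjusted p = 0.171) or without either 12 hr array (0.0965 and 0.125).

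The brightest Nfib probe set, 1371202_a_at, read 901 and 892 units at 0 hr, 861 and 739.8 at 2 hr, 762 and 931 at 4 hr, 1279.8 and 1412 at 12 hr, and 890.3 and 826 at 24 hr. Only the 12 hr arrays stood apart, and at 2 and 4 hr the log2 fold changes were -0.17 and -0.09 (adjusted p = 0.412 and 0.663). It rose 1.5-fold at 12 hr (0.58, standard error 0.12, adjusted p = 0.011, but 0.0656 to 0.089 without either 0 hr array or the second 12 hr array) and was below the 12 hr level again in 24 hr explants (-0.65, adjusted p = 0.0238), the only call of a member among the 18 between these times, beside 2.12% of all probe sets called down and 2.22% called up. That call did not hold in the 6 fits that left out a 0, 12 or 24 hr array (adjusted p from 0.0536 to 0.192). Nfib 1388167_at differed by -0.63 between 24 and 12 hr (adjusted p = 0.0657), which did not pass. These 2 Nfib probe sets had r = 0.86 over the 10 arrays. Between 4 and 2 hr the members' calls were the fall of Nfia and the rise of Nfatc2 given above, 1 down and 1 up of 18, beside 1.5% and 2.24% of all probe sets. Nfib 1388250_at was dim, at 32.4 to 40.4 units on all arrays.

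Nfix encodes NFIX, a regulator of fetal muscle and brain development, and its probe sets ran opposite ways. Probe set 1370946_at read 276 and 262 units at 0 hr, 326 and 390.0 at 2 hr, 255 and 376 at 4 hr, 265 and 221 at 12 hr, and 222 and 179 at 24 hr. Nothing was called against 0 hr, where the log2 fold changes were 0.41, 0.20, -0.15 and -0.43, but the F test over the 5 times passed. In 24 hr explants it was below the 2 hr level (-0.84, adjusted p = 0.0115, but 0.0679 without the second 2 hr array and 0.0847 without the second 24 hr array). The dimmer 1381213_at read 102 and 98.5 units at 0 hr, 81.3 and 70.2 at 2 hr, 82.5 and 74.1 at 4 hr, 94.3 and 97.3 at 12 hr, and 92.6 and 96.9 at 24 hr, so that its early arrays were the lowest. It fell 1.33-fold at 2 hr (-0.41, standard error 0.10, adjusted p = 0.0254) and 1.28-fold at 4 hr (-0.36, adjusted p = 0.0324), calls that were lost with the Actb ratio in the fit (adjusted p = 0.393 and 0.264), without either 0 hr array, and without the second array of the time itself (adjusted p from 0.104 to 0.163). The 4 hr call was also lost without either 12 hr array (0.0563). The pair had r = -0.78 over the 10 arrays. Nfic, the gene of a factor needed for tooth root formation in mice, was called by neither of its probe sets against 0 hr. For 1375342_at the log2 fold changes were -0.01, -0.37, -0.26 and -0.01, that at 4 hr just short of a call (adjusted p = 0.0504). For 1371176_at they lay from -0.19 to 0.02. Probe set 1375342_at stayed between 147 and 220.1 units and 1371176_at between 49.5 and 61.5, with r = -0.16 between them. Its 1 call between any of the times was that of 1375342_at, higher in 24 hr than in 4 hr explants (0.37, adjusted p = 0.0473), which passed in only 6 of 18 alternative fits (adjusted p up to 0.234).

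**Figure D3:**
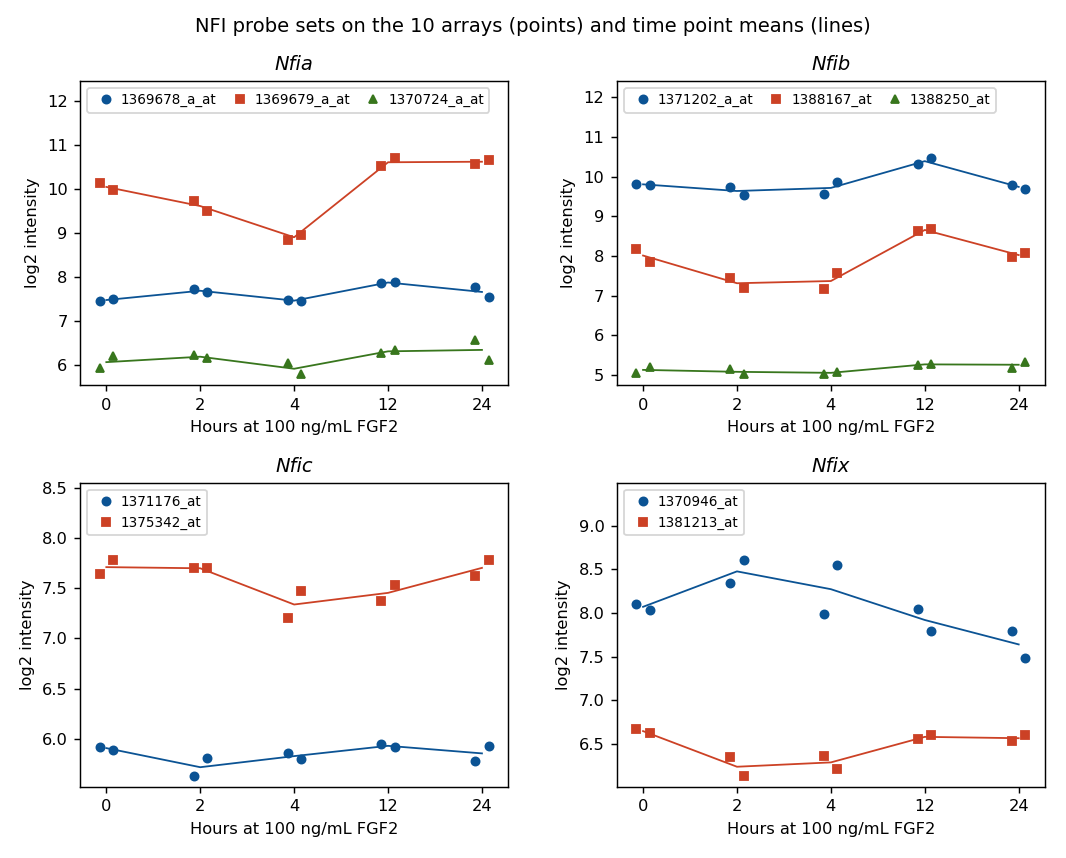
log2 intensity of the NFI probe sets on each of the 10 arrays (points, 2 per time point) with time point means (lines), against hours at 100 ng/mL FGF2 (times evenly spaced, not to scale), 1 panel per gene and its own vertical scale. Nfia 1369679_a_at is lowest at 4 hr and highest at 12 and 24 hr, Nfib peaks at 12 hr, and the Nfix probe sets run opposite ways.

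Setting the late phase (mean of 12 and 24 hr) against the early phase (mean of 2 and 4 hr), as the study divides its time points, gave 6 member probe sets up and 4 down, beside 19.9% and 19.3% of all probe sets. Of the 10 NFI probe sets 5 rose, from Nfia, Nfib and Nfix, and 1, the brighter of Nfix, fell. Of the 8 NFAT probe sets 1 rose and 3 fell. Nfia 1369679_a_at was 2.56-fold higher late (log2 difference 1.36, standard error 0.08, adjusted p = 9.66e-06), Nfib 1388167_at 2-fold (1.00, adjusted p = 0.000201) and Nfib 1371202_a_at 1.31-fold (0.39, adjusted p = 0.0072). The other rises were those of Nfatc3 (0.65, adjusted p = 0.000159), Nfix 1381213_at (0.31, adjusted p = 0.00835) and the dim Nfib 1388250_at (0.20, adjusted p = 0.0473), the last of which passed in only 2 of 17 alternative fits. Lower late were Nfat5 1372772_at (-1.02, standard error 0.12, adjusted p = 0.000272) and 1398421_at (-0.82, adjusted p = 0.00142), Nfatc1 (-0.68, adjusted p = 0.00275) and Nfix 1370946_at (-0.59, adjusted p = 0.00823). Nfatc2, above its 0 hr level in both phases, was called in neither direction: 0.27 for 1383527_at (95% interval 0.03 to 0.50) and -0.21 for 1381185_at (interval -0.42 to -0.00). Apart from Nfib 1388250_at the calls held under every alternative, but this comparison crosses the runs of arrays.

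**Figure D4:**
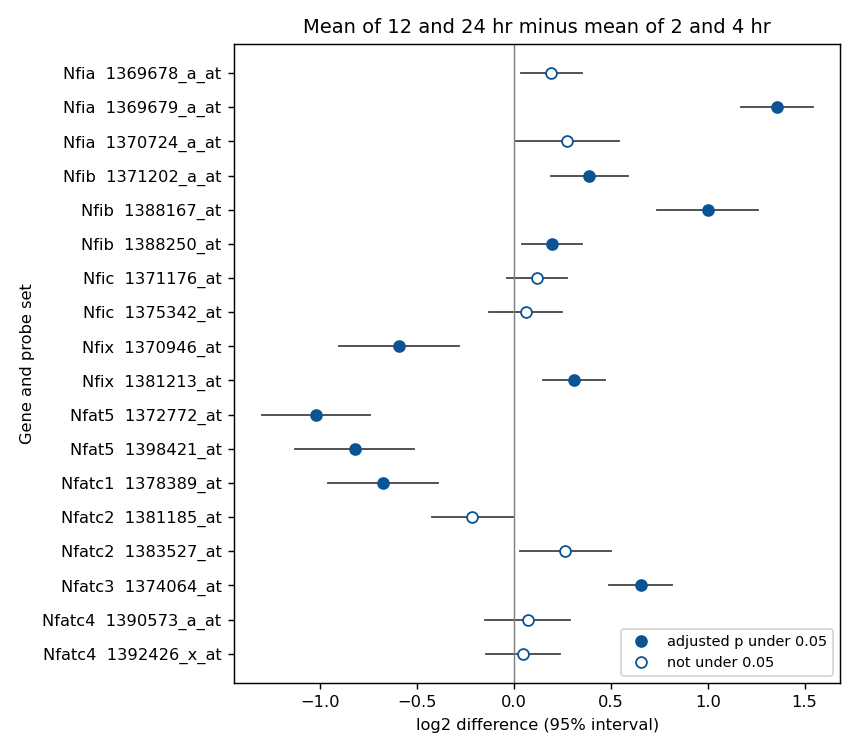
log2 difference between the mean of the 12 and 24 hr arrays and the mean of the 2 and 4 hr arrays for the 18 probe sets (points) with 95% intervals from the limma fit (bars), filled where the adjusted p was under 0.05. Nfia 1369679_a_at lies farthest to the right at 1.36 and Nfat5 1372772_at farthest to the left at -1.02.

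The crossing from the early to the late phase lies between 4 and 12 hr. In 12 hr explants against 4 hr explants 5 member probe sets were higher and 2 lower, beside 11% and 11.9% of all probe sets. Those higher were 2 of Nfia (1.71 and 0.41), 2 of Nfib (1.29 and 0.67) and Nfatc3 (0.66), and those lower were Nfat5 1372772_at (-0.81, adjusted p = 0.0111) and Nfatc1 (-0.87). Without the second 12 hr array the calls of Nfia 1369678_a_at (adjusted p = 0.102), Nfib 1371202_a_at (0.0503), Nfat5 (0.0556) and Nfatc1 (0.0744) were lost, and without the first 12 hr or the second 4 hr array those of Nfia 1369678_a_at and Nfat5 (0.0505 to 0.0774). Nfat5 1398421_at, at -0.55 (adjusted p = 0.0702), did not pass, its 4 hr arrays being 1735 and 2808 units.

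The other pairs of a late and an early time were compared after the values had been seen, and all of them cross the runs of arrays. In 12 hr against 2 hr explants 6 member probe sets were higher and 2 lower, beside 13.1% and 13.5% of all probe sets. The higher ones were Nfib 1388167_at (1.34) and 1371202_a_at (0.75), Nfatc2 1383527_at (1.11), Nfia 1369679_a_at (1.00), Nfatc3 (0.66) and Nfix 1381213_at (0.34), and both Nfat5 probe sets were lower (-1.11 and -0.95). The Nfix call passed in only 8 of 18 alternative fits (adjusted p up to 0.298). In 24 hr against 4 hr explants 4 were higher and 5 lower, beside 14.1% and 14.5%. Nfia 1369679_a_at (1.72), Nfib 1388167_at (0.65), Nfatc3 (0.65) and Nfic 1375342_at (0.37) were higher, and Nfatc1 (-0.97), the Nfat5 probe sets (-0.94 for 1372772_at and -0.69 for 1398421_at), Nfix 1370946_at (-0.63) and Nfatc2 1383527_at (-0.58) were lower. Besides that of Nfic, the calls lost in some of the 18 fits were those of Nfix (highest adjusted p 0.215), Nfat5 1398421_at (0.133), Nfatc2 (0.101) and Nfib (0.0901).

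The genes that lie on the route from calcium to NFATc were read at the brightest probe set of each. Counts for this and every other list below are to be read beside the shares of all probe sets called up and down at each time, given above. Those shares include dim probe sets and those without a symbol. List and marker genes are each read at their brightest probe set, so the shares are only a rough guide. Of 11 genes for calcineurin and its regulators 10 were on the array, with median log2 fold changes of 0.01, 0.13, -0.02 and -0.06 at 2, 4, 12 and 24 hr. There were 2 rises at 2 hr, 1 rise and 1 fall at 4 hr, 1 rise and 2 falls at 12 hr, and 1 of each at 24 hr. The catalytic subunits Ppp3ca and Ppp3cb, at intensities of about 2126 and 1586 on average, changed by at most 0.31 on the log2 scale, with a call only for Ppp3ca at 12 hr (-0.31, adjusted p = 0.0428), though a dimmer Ppp3cb probe set, 1387261_at, was up at 4 hr (0.62). Ppp3cc fell at 12 and 24 hr (-0.46 and -0.44). A dimmer Ppp3r1 probe set, 1391213_at, was up at 4 hr (0.49). Cabin1, a calcineurin inhibitor, fell at 4 hr (-0.35), and Fkbp1a, which encodes the binding protein of the drug FK506, rose at 12 and 24 hr (0.40 and 0.38). The other Fkbp1a probe sets, 1369621_s_at and 1398828_at, were not called at any time. They stood at 0.37 and 0.26 at 12 hr and at 0.29 and 0.17 at 24 hr. Rcan1, a calcineurin inhibitor that is itself switched on by NFAT in many cells, rose at 2 hr (0.84, standard error 0.21, adjusted p = 0.027) and stood at 0.31, -0.66 and -0.39 later. Rcan2, of the same inhibitor family, rose at 2 hr (1.03) and 4 hr (1.63, adjusted p = 0.00131) from a dim signal of 19.1 to 68.5 units. Its other probe set, 1374235_at, averaged 26.3 units against 30.0 for this one. That probe set was not called at any time and stood at 0.37 and 0.21 at 2 and 4 hr. Among 8 kinases and export factors that return NFATc to the cytoplasm, Dyrk2 rose at 2 and 4 hr (0.59 and 0.74), Dyrk1a at 2 hr (0.42) and Csnk1a1 at 4 hr (0.39), none fell, and at 12 and 24 hr none was called (medians 0.09, 0.01, -0.02 and -0.07). Other probe sets of these kinases differed from that. Csnk1a1 1381918_at was down at 2 and 4 hr (-0.42 and -0.41) and up at 12 hr (0.38), and Dyrk2 1376963_at was up at 4 hr (0.44) and down at 24 hr (-0.41, adjusted p = 0.033).

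Of 13 calcium release and entry genes 11 were on the array, with medians of 0.03, -0.02, 0.03 and 0.03. Rises numbered 1, 2, 4 and 4 at 2, 4, 12 and 24 hr, and falls 1, 2, 3 and 4. Stim2 and Stim1, which sense the calcium store of the endoplasmic reticulum and open the Orai channels, parted. Stim2 rose at all 4 times, with log2 fold changes of 0.60, 0.89, 1.59 and 1.31 (standard error 0.10, adjusted p = 5.02e-05 at 12 hr), while Stim1 fell at all 4, at -0.32, -0.38, -0.80 and -0.78 (standard error 0.09, adjusted p = 0.000494 at 12 hr). The other Stim1 probe sets, 1382121_at and 1394595_at, were down at 24 hr as well (-0.69 and -0.36). The channel genes Orai1, Orai2 and Orai3 rose at 12 hr (0.67, 0.91 and 0.54) and at 24 hr (0.41, 0.76 and 0.66), and Orai1 already at 4 hr (0.40), although the dim second Orai2 probe set, 1379159_at, stood at 0.10 and 0.09. Of the receptors that release the store, Itpr1 fell at 4 hr (-1.06, adjusted p = 7.83e-05), 12 hr (-0.51) and 24 hr (-0.51) and Itpr3 at 12 and 24 hr (-0.86 and -0.93), and Itpr2 was not called. Plcg1, the phospholipase below FGF receptors, fell at 24 hr (-0.41).

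**Figure D5:**
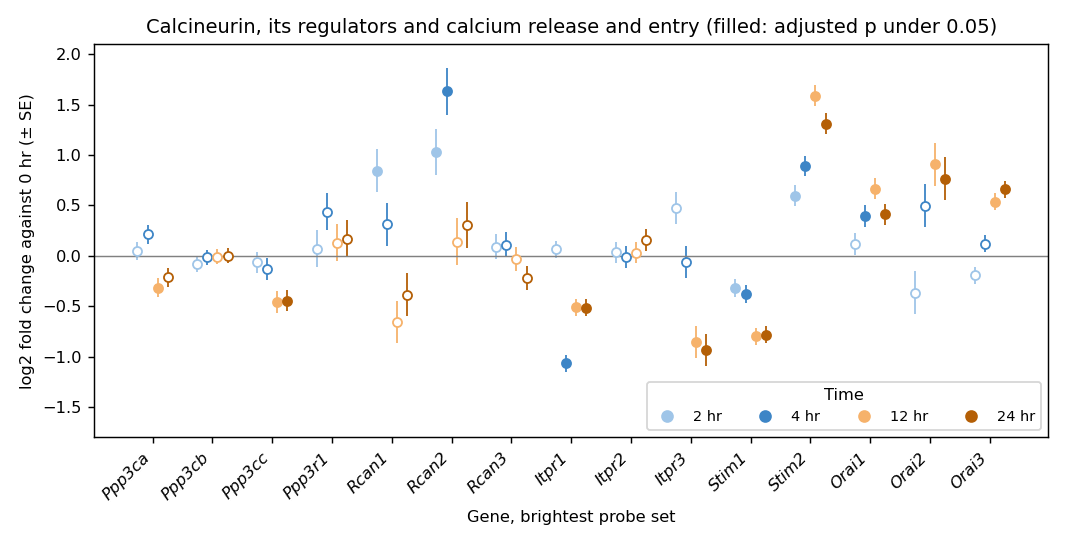
log2 fold change against 0 hr with its standard error (bars) after 2, 4, 12 and 24 hr for genes of calcineurin, its inhibitors, calcium release receptors, store sensors and Orai channels, at the brightest probe set of each, filled where the adjusted p was under 0.05. Stim2 climbs to 1.59 at 12 hr, Stim1 falls to -0.80, and the calcineurin genes Ppp3ca to Ppp3r1 stay within 0.46 of 0.

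Genes known to be NFATc-regulated in other cells, 10 in all, had 3 rises at 2 hr and 2 at each later time, with no fall and medians of 0.11, 0.10, 0.09 and 0.05. Those that rose were Egr2 at all times (5.07, 3.73, 2.22 and 1.30), Ptgs2 at 2 and 4 hr (2.70 and 2.40), Rcan1 at 2 hr, and Acp5, the acid phosphatase of osteoclasts, at 12 and 24 hr (1.46 and 2.16). The cytokine genes of T cells, Il2, Il4, Tnf and Faslg, were not called and lay within 0.18 of 0. The NFAT5 list of osmoprotective genes had 8 of 10 on the array. Akr1b1, the aldose reductase that makes sorbitol, stood at 0.00 and -0.15 at 2 and 4 hr and fell at 12 hr (-0.86, standard error 0.09, adjusted p = 0.000366) and 24 hr (-0.83, adjusted p = 0.000422), whereas its other probe set 1396360_at stood at -0.46 (adjusted p = 0.0605) and -0.16 (0.528) at these times and was not called. Slc6a6, the taurine transporter, fell at 2 hr (-0.78) and 24 hr (-0.89), Slc5a3, the inositol transporter, rose at 4 and 12 hr (0.66 and 0.58), and Hspa4l rose at 2 and 4 hr (0.71 and 1.32). The list counts were 1 up and 1 down at 2 hr, 2 up at 4 hr, 1 up and 1 down at 12 hr, and 2 down at 24 hr, with medians of -0.02, -0.13, 0.04 and -0.11.

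Among 9 genes regulated by NFI in the nervous system, rises numbered 2, 3, 2 and 1 over the 4 times and falls 1, 1, 3 and 3 (medians 0.44, 0.06, 0.13 and -0.15). Zcchc24, a target of NFIA in neural progenitors, fell at all 4 times (-0.93, -1.39, -1.50 and -1.26, standard error 0.15). Apcdd1, a Wnt inhibitor induced by NFIA in glia, fell at 12 and 24 hr (-1.70 and -1.42), as did Ezh2, a histone methyltransferase repressed by NFIB in mouse brain (-0.55 and -0.63). Gfap, the glial filament gene, rose at 2 and 4 hr (0.67 and 0.66) from a dim signal of 49.1 to 89.2 units, Hes1 at 2, 4 and 12 hr (0.46, 0.48 and 0.47), Mmd2 at 4 and 24 hr (0.30 and 0.33) and Slc1a2 at 12 hr (0.70). Aqp4 and Fabp7 were not called at any time at the brightest probe set, but a dimmer probe set of Aqp4 was called. Binding by NFI proteins was not measured.

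The genes whose log2 values ran most like the brightest probe set of each member over the 10 arrays are given as a description, since all values come from the same arrays and time points. For Nfatc2 they were Tpm3, a tropomyosin gene (r = 0.99), Trim62 (0.99) and the calcium channel gene Trpc1 (0.99), which stood at 1.40, 1.37 and 0.76 at 4 hr. For Nfia they were Grhpr (0.98), Trim25 (0.97) and the mTOR inhibitor Deptor (0.97), the last at -1.66 at 4 hr and 0.95 at 24 hr. For Nfib they were Yipf3 (0.96), Dgkd (0.95) and Eya1, a lens and ear transcription cofactor (0.94). For Nfat5 they were Anks1b (0.99), Matr3 (0.98) and Timp3, a metalloproteinase inhibitor that stood at -2.48 and -2.51 at 12 and 24 hr (0.98). For Nfatc1 they were Cab39 (0.97), Ahnak2 (0.97) and the neurofilament gene Nefl (0.96), the last at 2.41 at 4 hr. For Nfatc3 they were Dynll2, Med31 and Pcnx4 (0.99 each), and for Nfix 1370946_at Slc37a4, Gnb3 (0.96 each) and Parm1 (0.95).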

How the data were processed

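RNA of lens explants was amplified, labeled with biotin and hybridized to Affymetrix rat arrays, 2 per time point. Per the labels, the authors' processing was RMA, a robust averaging over the probes of a set, whose version is not given in the sources used here. The authors deposited intensity values on a linear scale. The array type named in the text differs from that in the array names. The deposited intensities were log2-transformed and not normalized again. Leaving out 57 array controls gave 31042 probe sets. Of these 20826 carry 1 gene symbol, 436 several and 9780 none. A model with a mean for every time point was fitted to the 10 arrays together with lmFit (limma 3.58.1, R 4.3.3; 5 residual degrees of freedom), eBayes moderated the variance, and p-values were adjusted by Benjamini-Hochberg over all probe sets. The p-values of contrasts are two-sided, and those of the F test are upper-tail. The number of arrays limits the precision.

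All member probe sets are named. For members passing the F test at the brightest probe set, the 3 genes with the highest Pearson r are named, and list genes are read at their brightest probe set and named where called. Members, lists and markers were chosen with earlier results of these data known. The script was tested on simulated data. Figures were drawn with matplotlib 3.10.9 in Python 3.11.15. Equal replicate numbers were checked for pairing by correlating the replicate differences between time points: r was 0.33 for 2 and 4 hr and -0.15 to 0.00 for the other pairs, so the numbers were not used to pair arrays. The alternatives tried were quantile normalization, median centring, a filter on dim probe sets, a trended and robust variance prior, a replicate block, the Actb ratio as a covariate, array quality weights, each array left out in turn, the groups of a contrast alone, unadjusted p, a fold minimum, the brightest probe set alone and, chosen after seeing the data, a fit that omits the 2 and 4 hr arrays. The microRNA cards were not analysed here.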

Additional observations from a re-analysis of the deposited data

Results flagged for a closer look

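Member probe sets whose change against 0 hr differed between 2 times or between the phases, by limma with adjustment over all probe sets, are listed here with the size of the difference on the log2 scale. Between 4 and 2 hr these were Nfatc2 1383527_at (1.20) and Nfia 1369679_a_at (-0.71), and between 24 and 12 hr Nfib 1371202_a_at (-0.65). Between 12 and 4 hr they were Nfia 1369679_a_at (1.71) and 1369678_a_at (0.41), Nfib 1388167_at (1.29) and 1371202_a_at (0.67), Nfatc3 1374064_at (0.66), Nfat5 1372772_at (-0.81) and Nfatc1 1378389_at (-0.87). Between 12 and 2 hr they were Nfib 1388167_at (1.34) and 1371202_a_at (0.75), Nfatc2 1383527_at (1.11), Nfia 1369679_a_at (1.00), Nfatc3 1374064_at (0.66), Nfix 1381213_at (0.34), Nfat5 1372772_at (-1.11) and 1398421_at (-0.95). Between 24 and 2 hr they were Nfia 1369679_a_at (1.01), Nfib 1388167_at (0.71), Nfatc3 1374064_at (0.65), Nfatc2 1383527_at (0.62) and 1381185_at (-0.40), Nfix 1381213_at (0.33) and 1370946_at (-0.84), and Nfat5 1372772_at (-1.24) and 1398421_at (-1.09). Between 24 and 4 hr they were Nfia 1369679_a_at (1.72), Nfib 1388167_at (0.65), Nfatc3 1374064_at (0.65), Nfic 1375342_at (0.37), Nfatc1 1378389_at (-0.97), Nfat5 1372772_at (-0.94) and 1398421_at (-0.69), Nfix 1370946_at (-0.63) and Nfatc2 1383527_at (-0.58). Between the late and the early phase Nfia 1369679_a_at (1.36), Nfib 1388167_at (1.00), 1371202_a_at (0.39) and 1388250_at (0.20), Nfatc3 1374064_at (0.65) and Nfix 1381213_at (0.31) were higher late, and Nfat5 1372772_at (-1.02) and 1398421_at (-0.82), Nfatc1 1378389_at (-0.68) and Nfix 1370946_at (-0.59) were lower late. The probe sets of Nfix differed in opposite directions between the phases. Among the calls between 24 and 2 hr, that of Nfix 1381213_at passed in only 8 of 18 alternative fits and that of Nfib 1388167_at in 16 of 18.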

How the results depend on the processing

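None of the called changes of the members turned direction under the alternatives tried. The counts of member probe sets called were 6, 8, 8 and 5 at 2, 4, 12 and 24 hr against 0 hr, 2 for 4 against 2 hr, 7 for 12 against 4 hr, 1 for 24 against 12 hr, 10 between the phases and 12 over all times. With 1 array left out in turn they ranged from 3 to 6, 5 to 8, 2 to 8, 2 to 5, 1 to 3, 3 to 9, 0 to 2, 9 to 11 and 8 to 12. A time point that keeps 1 array is then assumed to vary like the others. Shares of all probe sets called in the alternative fits are not given here. These counts therefore cannot tell a loss particular to the members from one over the whole array. With the Actb ratio in the fit 2 were called at 2 hr. The brightest probe set alone, which leaves 9, gave 3, 4, 4 and 3 against 0 hr, 4 for 12 against 4 hr, 6 between the phases and 7 over all times. A fit of the groups of a contrast alone gave 5 at 4 hr, 0 for 4 against 2 hr (5 at an unadjusted p under 0.05 in the fit of all arrays) and 3 for 24 against 12 hr. Array quality weights gave 1 for 4 against 2 hr and 3 for 24 against 12 hr, an unadjusted p 5 and 3, and the fit without the 2 and 4 hr arrays, chosen after seeing the data, 3 for 24 against 12 hr. The cause was not tested. With a replicate block 6, 9, 8 and 5 were called against 0 hr, 2 for 4 against 2 hr, 7 for 12 against 4 hr, 1 for 24 against 12 hr, 9 between the phases and 11 over all times. For 12 against 2 hr, 24 against 2 hr and 24 against 4 hr, whose alternatives were chosen after seeing the data, 8, 9 and 9 were called. With 1 array left out in turn the counts were 7 to 9, 4 to 10 and 5 to 9. They were 4 for 24 against 2 hr without the second 2 hr or the second 24 hr array and 5 for 24 against 4 hr without the first 24 hr array. The brightest probe set alone gave 5 for 12 against 2 hr and 5 for 24 against 2 hr, the groups alone 5 for 24 against 4 hr, and a replicate block 8 for each.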
